A study of Mus musculus with 229 samples.

Results

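Olig1, Olig2, Sox10 and Nkx2-2 are 4 transcription factor genes of the oligodendrocyte lineage, and they were followed by name through every deposited table of mouse cortex and mouse glioblastoma cells. They are 4 of the 49268 gene names in the droplet and C1 tables, and each of them was present in all 4 droplet tables and both C1 tables. Their level was read by library, by class of cell and by single cell, together with the open chromatin intervals called around their loci.

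Oligodendrocytes, the myelin-forming cells of the brain, arise from oligodendrocyte precursor cells (OPCs), which divide, spread through the tissue and carry the growth factor receptor PDGFRa. Olig1 and Olig2 are neighbouring genes that encode basic helix-loop-helix factors. Olig2 is needed to specify OPCs and is also present in ventral neural progenitors and many gliomas, while Olig1 is known for its role in maturation and remyelination. Sox10 encodes a high-mobility-group factor that switches on myelin genes, and Nkx2-2 encodes a homeodomain factor known for its part in the timing of differentiation.

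The groups were, in droplets, a glioblastoma at dpi 35 on the 10x platform, a glioblastoma at dpi 25 by Drop-seq, PDGFRa-GFP cortex at postnatal days 1 to 3 by Drop-seq and hGFAP-GFP cortex at postnatal days 5 to 6 by Drop-seq, with 1 library each. On the C1 system, which captures single cells in a chip, there were 53 PDGFRa-GFP cells of P6 and 60 of P3, and 61 hGFAP-GFP cells of P4 and P6 and 49 of P3. ATAC-seq, which maps open chromatin, was done on PDGFRa-GFP cortex at E14.5 and P5 and was deposited as 1 pooled list. The strain names give GFP under Pdgfra in one line and under the human GFAP promoter in the other, and cortical cells were sorted as GFP-positive and 7-AAD-negative. The tumours were enzymatically digested and freed of red cells, with no sort described, and the labels give neither the alleles that drive them nor their host strain. No label names the animals, so each droplet library and each C1 set is 1 sample and no test between groups was made. The age and the strain of the 2 cortical libraries change together and cannot be told apart, and neither can stage, platform and any other difference between the 2 tumours. The C1 PDGFRa-GFP cells carry the other line in their strain field, and in the ATAC samples the title disagrees with the fields for age and genotype. Titles were followed in both cases.

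The droplet libraries held 6054 cells (GBM dpi35, median 6582 UMIs per cell), 4955 cells (GBM dpi25, 2063 UMIs), 3184 cells (PDGFRa-GFP, 2013.5 UMIs) and 815 cells (hGFAP-GFP, 4167 UMIs). The labels state 6796 cells for GBM dpi25 and 2000 for hGFAP-GFP. No cell barcode was shared between libraries. Pdgfra was at 141 CPM in PDGFRa-GFP and 88.4 CPM in hGFAP-GFP. OPC markers summed to 1709 CPM (UMIs relative to the library total) in PDGFRa-GFP and 1352 CPM in hGFAP-GFP, astrocyte markers to 1158 CPM and 5582 CPM, and neuron markers to 5172 CPM and 3440 CPM. Markers of ependyma or choroid plexus summed to 10106 CPM in PDGFRa-GFP, where 53 cells were named for them, and to 178 CPM in hGFAP-GFP.

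For Olig2 and Nkx2-2 the RefSeq promoter table (GRCm38.p6) holds a start region, and the 250 bases before its first transcribed base are shown because the open chromatin called there is described later. Capitals mark the motifs that were found on either strand: the E-box CANNTG, which basic helix-loop-helix factors bind, the SOX cores ACAAAG and ACAATG, and the NK2 core AAGTG. The Olig2 window lies at chr16:91225300-91225549 on the plus strand and the Nkx2-2 window at chr2:147186403-147186652 on the minus strand. The Nkx2-2 window lies inside the gene span used for the intervals later, chr2:147176485-147195434. Its first transcribed base is thus not the upper end of that span.
Olig2: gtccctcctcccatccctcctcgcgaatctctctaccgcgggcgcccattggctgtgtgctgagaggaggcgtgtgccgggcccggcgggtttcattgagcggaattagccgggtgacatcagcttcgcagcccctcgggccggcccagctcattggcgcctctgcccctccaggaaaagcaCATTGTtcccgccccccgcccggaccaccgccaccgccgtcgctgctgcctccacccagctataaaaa
Nkx2-2: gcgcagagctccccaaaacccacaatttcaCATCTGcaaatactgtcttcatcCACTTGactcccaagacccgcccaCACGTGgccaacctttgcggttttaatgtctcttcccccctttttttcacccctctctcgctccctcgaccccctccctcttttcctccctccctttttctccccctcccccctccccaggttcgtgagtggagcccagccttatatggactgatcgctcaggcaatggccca
The Olig2 window had a GC content of 66.8%, no E-box and no NK2 core, and its only match was 1 SOX core, read as CATTGT. The Nkx2-2 window had a GC content of 56.4%, 3 E-boxes, and 1 NK2 core that overlaps the second of them. Over 27025 RefSeq promoters of the same length, 66% held an E-box, 16.5% ACAAAG, 11.0% ACAATG and 40.8% AAGTG. A match is a description of the letters and not a bound site.

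All 4 genes were detected in every droplet library, with Olig1 giving the most UMIs and Nkx2-2 the fewest in each. Olig1 was at 657 CPM in GBM dpi35 (95% interval 650.2 to 664), 1033 CPM in GBM dpi25 (1014 to 1051), 791 CPM in PDGFRa-GFP (772 to 811) and 324 CPM in hGFAP-GFP (307 to 341). Olig2 was at 159 CPM in GBM dpi35 (156 to 163), 492 CPM in GBM dpi25 (480 to 505), 285 CPM in PDGFRa-GFP (274 to 297) and 180 CPM in hGFAP-GFP (168 to 194). These are levels relative to all UMIs of a library with exact Poisson intervals, which cover counting error only. For Olig1 the order ran GBM dpi25, PDGFRa-GFP, GBM dpi35, hGFAP-GFP, and for Olig2 the last pair was reversed, with no overlap of intervals in either order.

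Sox10 was at 93.0 CPM in GBM dpi35 (90.4 to 95.7), 139 CPM in GBM dpi25 (133 to 146), 80.4 CPM in PDGFRa-GFP (74.4 to 86.8) and 34.1 CPM in hGFAP-GFP (28.7 to 40.1). Nkx2-2 was at 26.2 CPM in GBM dpi35 (24.8 to 27.6), 50.3 CPM in GBM dpi25 (46.3 to 54.6), 24.2 CPM in PDGFRa-GFP (20.99 to 27.9) and 20.7 CPM in hGFAP-GFP (16.6 to 25.6). GBM dpi25 was highest for every gene, whereas the intervals of Nkx2-2 overlapped among the other 3 libraries. In a library sum, fewer cells with a gene and less RNA of it per cell cannot be told apart. GBM dpi35 came from another platform, so its levels stand beside the others with no fold.

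**Figure D1:**
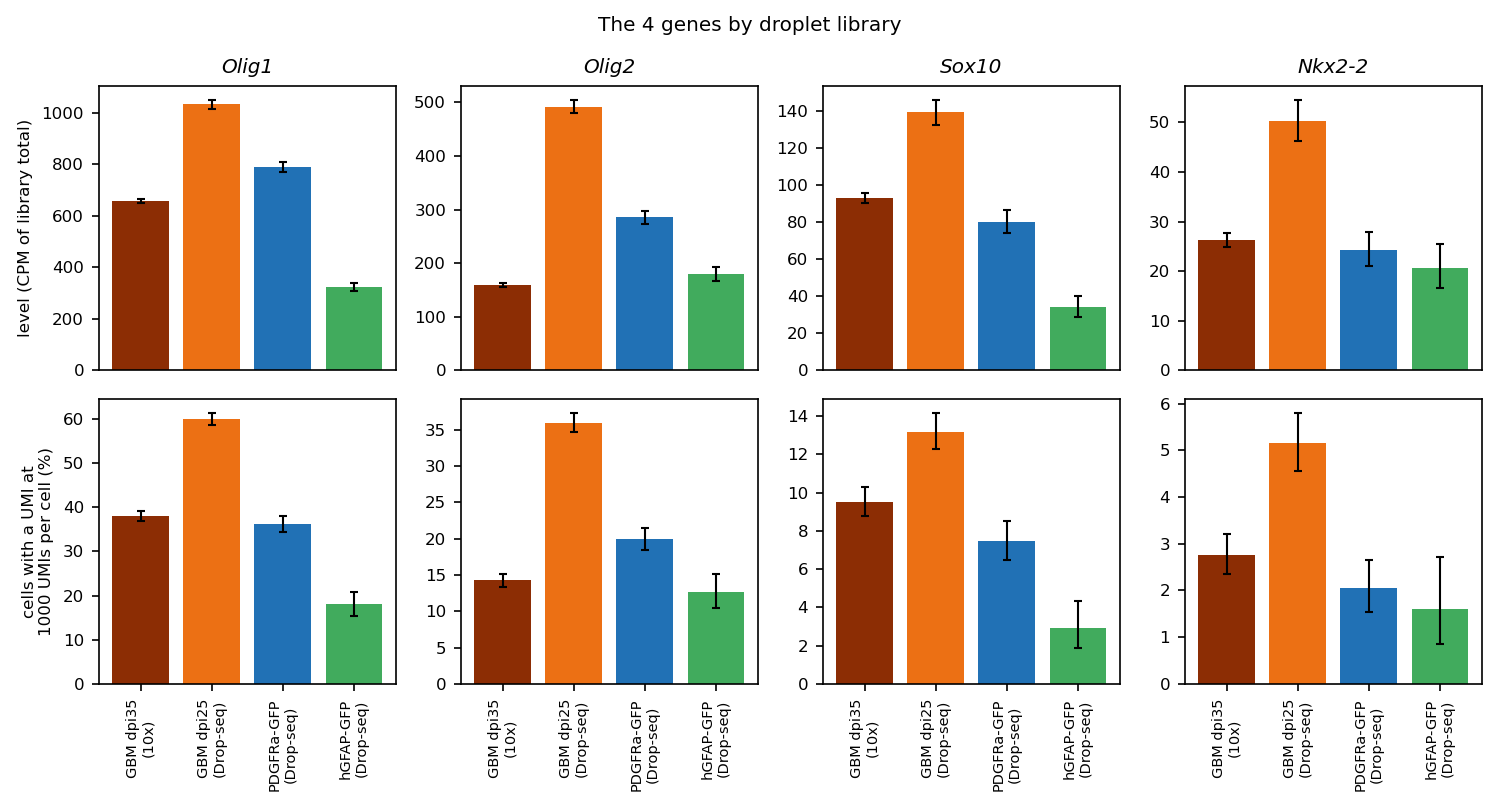
Level of each gene in CPM of the library total (top) and share of cells with a UMI after 1000 UMIs were drawn from each cell (bottom) in the 4 droplet libraries. Bars are single libraries and error bars are 95% counting intervals; GBM dpi25 stands highest in all 8 panels.

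Depth differs between cells, so shares of cells were taken at 1000 UMIs drawn per cell, leaving out 500 shallower PDGFRa-GFP cells and none of the others. At that depth Olig1 was seen in 38.02% of GBM dpi35 cells, 60.0% of GBM dpi25 cells, 36.2% of PDGFRa-GFP cells and, in hGFAP-GFP, 18.04%. Without the draw the same shares were 68.7%, 77.8%, 44.1% and 36.4%. Olig2 was seen in 14.3%, 35.98%, 19.9% and 12.6% of the cells of those libraries at 1000 UMIs, Sox10 in 9.53%, 13.2%, 7.45% and 2.94%, and Nkx2-2 in 2.76%, 5.15%, 2.05% and 1.60%. Microglia- or macrophage-like cells, which should lack these genes, are given beside them, and the source of their UMIs was not tested. There Olig1 was seen in 8.1% of GBM dpi35 cells and 10.7% of GBM dpi25 cells, Olig2 in 1.1% and 3.5%, Sox10 in 0.7% and 0.9%, and Nkx2-2 in 0 of 1007 cells, which allows a share of cells with a UMI of up to 0.298%, and 0.3%. Their median depth was 6365 UMIs in GBM dpi35 and 2157 UMIs in GBM dpi25, near the library medians given above. Without the draw the 1007 cells of GBM dpi35 held 14 UMIs of Nkx2-2.

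Olig1 and Sox10 stood higher in the PDGFRa-GFP than in the hGFAP-GFP library, by a log2 ratio of 1.29 (1.20 to 1.38) for Olig1 and 1.24 (0.98 to 1.51) for Sox10. Olig2 differed by 0.66 (0.54 to 0.78), and the interval of Nkx2-2, 0.23 (-0.15 to 0.61), included 0. Of the 4 genes, 2 were thus at least 2-fold higher, against 4.85% of the 13555 genes with at least 20 UMIs in the pair, and 0 were at least 2-fold lower, against 12.7%. Of 21 measured regulators that act with or beside them, 1 was at least 2-fold higher and 2 lower, with a median of -0.27, beside 0.04 over all genes. The Notch effector Hes5 was at 326 CPM in PDGFRa-GFP and 111 CPM in hGFAP-GFP, while the glial factor Nfia was at 262 CPM and 752 CPM and the differentiation inhibitor Id2 at 177 CPM and 410 CPM. Of 13 measured genes known as targets or lineage markers downstream of the 4 factors, 5 were at least 2-fold higher and 0 lower, with a median of 0.79. The myelin gene Mbp (152 CPM in PDGFRa-GFP, 38.8 CPM in hGFAP-GFP) and the premyelinating marker Bcas1 (198 CPM and 82.7 CPM) were among the 5. Of 11 neuronal factors, 3 were higher and 3 lower. Dlx2, Dlx5 and Sp8 of ventral progenitors were higher, and Neurod1, Neurog2 and Eomes of dorsal progenitors were lower. The sums of OPC, neuron and astrocyte markers given above differ beside these values, and their part in them was not tested.

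Between the 2 Drop-seq libraries of tumour and PDGFRa-GFP cortex, all 4 genes were higher in the tumour library as a whole. The log2 ratio of GBM dpi25 over PDGFRa-GFP was 0.38 (0.34 to 0.43) for Olig1, 0.79 (0.72 to 0.86) for Olig2, 0.79 (0.66 to 0.93) for Sox10 and 1.05 (0.82 to 1.29) for Nkx2-2. Only Nkx2-2 was at least 2-fold higher, 1 of 4 against 16.2% of 14162 genes, and 0 of 4 were at least 2-fold lower, against 16.6%. The other regulators differed from this, with 2 of 22 at least 2-fold higher, 10 lower and a median of -0.54 beside -0.01 over all genes. Hes5 was at 2.4 CPM in GBM dpi25 and 326 CPM in PDGFRa-GFP, Sox11, a factor of young neurons and progenitors, at 6.0 CPM and 45.3 CPM, Sox4 at 211 CPM and 1118 CPM, and Id4 at 1.4 CPM and 44.9 CPM. Of the 16 target or marker genes, 7 were higher and 2 lower, with a median of 0.79. The late myelin gene Mobp was at 81.3 CPM in GBM dpi25 and 0.2 CPM in PDGFRa-GFP, while Gpr17, a marker of newly committed oligodendrocytes, was at 33.3 CPM and 91.1 CPM. The comparisons share the PDGFRa-GFP library. Microglial markers summed to 2322 CPM in GBM dpi25 and 97.8 CPM in PDGFRa-GFP. Neuron markers summed to 341 CPM in GBM dpi25 and 5172 CPM in PDGFRa-GFP, and markers of ependyma or choroid plexus to 58.6 CPM and 10106 CPM. The part of these other cells in the ratios was not tested.

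Classes of cells were set from fixed marker lists, none of which holds the 4 genes, on clusters built with the 4 genes left out. Among named classes, OPC-like cells had the highest Olig1. The 960 OPC-like cells of GBM dpi35 had 2025 CPM of Olig1, 426 CPM of Olig2, 224 CPM of Sox10 and 53.96 CPM of Nkx2-2. The 906 OPC-like cells of PDGFRa-GFP had 1917 CPM of Olig1, 602 CPM of Olig2, 212 CPM of Sox10 and 58.9 CPM of Nkx2-2. At 1000 UMIs per cell Olig1 was seen in 82.2% of the tumour's and 82.1% of the cortex's OPC-like cells. The clusters of GBM dpi25 and hGFAP-GFP gave no OPC-like class.

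Among named classes, oligodendrocyte-like cells had the highest measured Sox10 and Nkx2-2 in each library, though not always apart from the next class. In GBM dpi25 their Nkx2-2 rests on 14 UMIs. Its interval, 42.1 to 129 CPM, held that of cycling-like cells, 48.5 to 63.5 CPM. In PDGFRa-GFP the interval of their Sox10, 199 to 379 CPM, overlapped that of OPC-like cells, 193 to 233 CPM. Sox10 was at 357 CPM in the 329 cells of GBM dpi35, 275 CPM in the 72 cells of GBM dpi25, 278 CPM in the 38 cells of PDGFRa-GFP and 249 CPM in the 80 cells of hGFAP-GFP, and the intervals overlapped save between GBM dpi35 and hGFAP-GFP. Nkx2-2 was at 122 CPM in GBM dpi35, 77.1 CPM in GBM dpi25, 236 CPM in PDGFRa-GFP and 97.8 CPM in hGFAP-GFP, and stood apart from the other 3 in PDGFRa-GFP alone. The hGFAP-GFP cluster also held OPC genes among its leading genes, with 8 oligodendrocyte and 6 OPC markers among its first 50.

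Set against OPC-like cells of the same library, the oligodendrocyte-like class as a whole had less Olig1 and more Nkx2-2. In GBM dpi35 the log2 ratio of oligodendrocyte-like over OPC-like cells was -1.05 (-1.11 to -0.996) for Olig1, -0.65 (-0.77 to -0.54) for Olig2, 0.67 (0.55 to 0.79) for Sox10 and 1.18 (0.96 to 1.40) for Nkx2-2. In PDGFRa-GFP it was -1.42 (-1.72 to -1.14) for Olig1, 0.10 (-0.22 to 0.41) for Olig2, 0.39 (-0.11 to 0.86) for Sox10 and 2.00 (1.41 to 2.56) for Nkx2-2. The intervals of Olig2 and Sox10 in PDGFRa-GFP included 0. Olig1 gave 3.60 UMIs per UMI of Olig2 in oligodendrocyte-like and 4.75 in OPC-like cells of GBM dpi35, and 1.11 and 3.18 in those of PDGFRa-GFP.

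Both tumours split their oligodendrocyte-like cells into a cluster led by late myelin genes and one led by genes of newly formed oligodendrocytes, and these pairs were set against each other after their values had been seen. In GBM dpi35, 99 late cells had 1027 CPM of Olig1 and 115 CPM of Olig2, and 230 early cells had 950 CPM and 344 CPM. The log2 ratio of late over early was 0.11 (-0.00 to 0.22) for Olig1, -1.58 (-1.88 to -1.29) for Olig2, -1.07 (-1.302 to -0.85) for Sox10 and -1.59 (-2.06 to -1.16) for Nkx2-2. Set against OPC-like cells of GBM dpi35, the interval of the late cluster included 0 for Nkx2-2 (51.3 CPM in late cells, 53.96 CPM in OPC-like cells, a log2 ratio of -0.07 with an interval of -0.54 to 0.37) and for Sox10 (204 and 224 CPM, -0.14, -0.36 to 0.08). The early cluster had more of both, with 155 CPM of Nkx2-2 (1.52, 1.29 to 1.75) and 429 CPM of Sox10 (0.94, 0.81 to 1.06). In GBM dpi25, with 39 late and 33 early cells, it was 0.06 (-0.48 to 0.61) for Olig1 and -2.50 (-3.58 to -1.55) for Olig2, which had 11 UMIs in late and 54 in early cells. The intervals for Sox10, -0.67 (-1.55 to 0.19), and Nkx2-2, -1.05 (-2.98 to 0.68), included 0 there. The Olig1 interval thus included 0 in both tumours, only just in GBM dpi35 and with a wide span in GBM dpi25. Olig2 was lower in the late cells of both.

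Primitive OPC-like cells, named from Egfr, Dll3 and other markers of an early precursor state, had less Sox10 for their Olig2 than OPC-like cells. The 393 such cells of PDGFRa-GFP had 995 CPM of Olig1, 391 CPM of Olig2, 64.2 CPM of Sox10 and 4.4 CPM of Nkx2-2, and the 157 of hGFAP-GFP had 564, 293, 39.5 and 21.7 CPM. Olig2 gave 6.08 UMIs per UMI of Sox10 in the primitive cells of PDGFRa-GFP and 7.42 in those of hGFAP-GFP, beside 2.84 in the OPC-like cells of PDGFRa-GFP. The level of this class depends on where its clusters are drawn. In PDGFRa-GFP its Olig1 was 282 CPM and its Sox10 1.56 CPM at a coarser Leiden resolution of 0.5, and 1725 CPM and 111 CPM at a finer one of 2. In hGFAP-GFP its Sox10 was 6.91 CPM at 0.5.

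In each cortical library the class consisted of 2 unlike clusters. In PDGFRa-GFP, 173 cells led by Fos, Hes5 and Dll1 had 2050 CPM of Olig1, 791 CPM of Olig2, 151 CPM of Sox10 and 10.5 CPM of Nkx2-2, and 220 cells led by replication genes of the Mcm family had 236, 103, 1.5 and 0 CPM. The log2 ratio of the first cluster over the second was 3.12 (2.87 to 3.37) for Olig1, 2.94 (2.57 to 3.34) for Olig2 and 6.64 (4.12 to 11.97) for Sox10, with 72 and 1 UMIs of Sox10. In hGFAP-GFP, 63 cells led by Prss23, Dll1 and Draxin had 1276, 577, 98.4 and 52.5 CPM, and 94 cells led by Mcm genes had 111, 113, 2.1 and 2.1 CPM. Their ratios were 3.53 (3.11 to 3.97) for Olig1, 2.36 (1.91 to 2.83) for Olig2, 5.56 (2.97 to 10.9) for Sox10 and 4.65 (1.97 to 10.0) for Nkx2-2. Olig1 and Olig2 were thus present in both Mcm clusters while Sox10 gave 1 UMI in each.

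OPC-like cells of PDGFRa-GFP differed from the cluster led by Fos, Hes5 and Dll1 in Nkx2-2 above all. The log2 ratio was -0.10 (-0.20 to 0.01) for Olig1, -0.39 (-0.56 to -0.22) for Olig2, 0.49 (0.12 to 0.87) for Sox10 and 2.49 (1.22 to 4.14) for Nkx2-2, the last from 122 UMIs in 906 cells and 5 UMIs in 173 cells.

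Away from the lineage, Olig1 and Olig2 were measured in astrocyte-like cells, where Sox10 gave 1 or 2 UMIs in the cortical libraries. The 16 astrocyte-like cells of GBM dpi35 had 36 UMIs of Olig1, 3 of Olig2, 3 of Sox10 and 1 of Nkx2-2. The 37 astrocyte-like cells of PDGFRa-GFP had 39 UMIs of Olig1, 18 of Olig2, 1 of Sox10 and 3 of Nkx2-2, and the 117 of hGFAP-GFP had 117, 59, 2 and 13. Olig2 gave 29.5 UMIs per UMI of Sox10 in the astrocyte-like cells of hGFAP-GFP, with an interval of 7.81 to 249. Neuron-like cells had 58.8 CPM of Olig1 in PDGFRa-GFP and 20.2 CPM in hGFAP-GFP, and Sox10 gave 8 UMIs in the 978 cells of PDGFRa-GFP and 0 in the 204 of hGFAP-GFP, which allows a share of cells with a UMI of up to 1.47%.

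**Figure D2:**
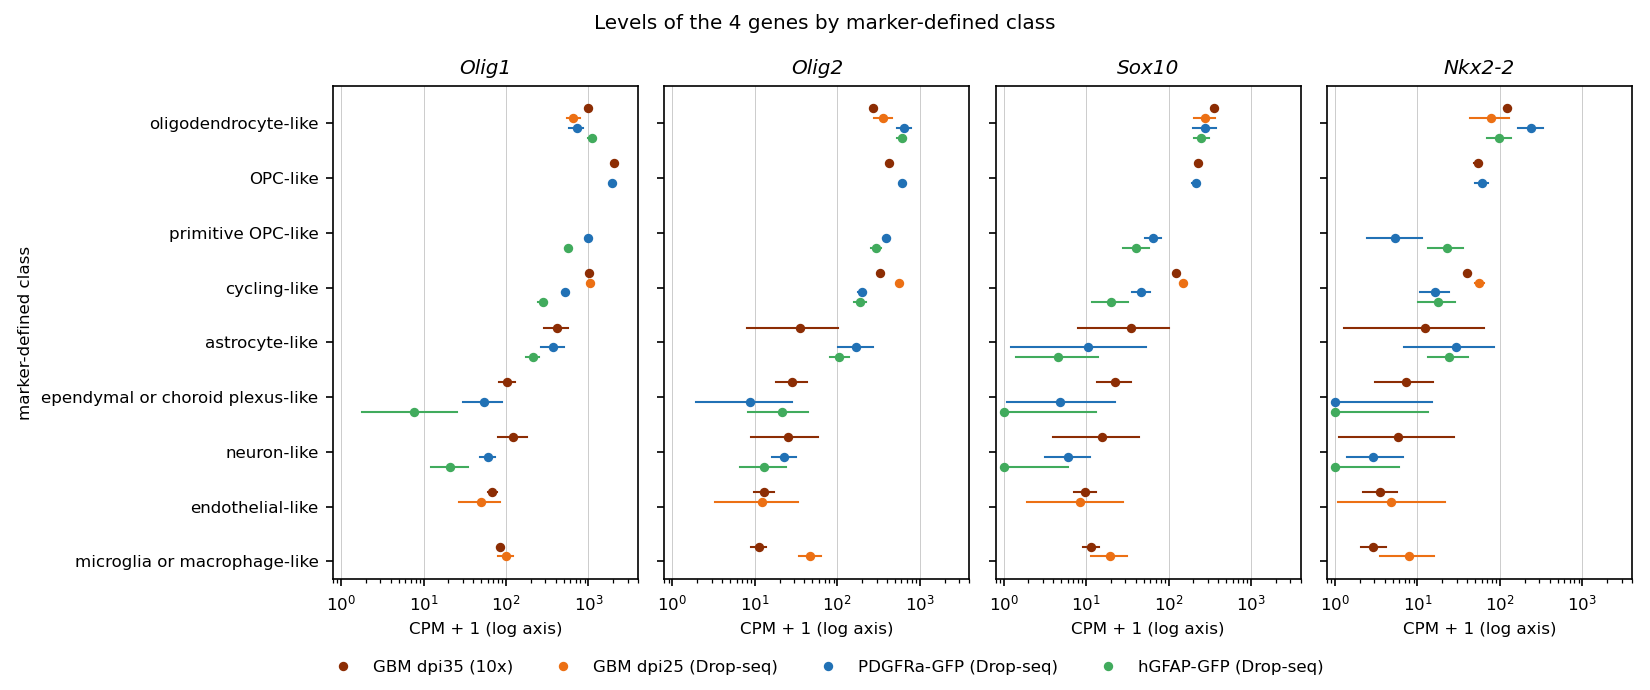
Level of each gene as CPM + 1 on a log axis by marker-defined class and library, with 95% counting intervals. Olig1 is highest in OPC-like cells (2025 CPM in GBM dpi35 and 1917 CPM in PDGFRa-GFP), while Sox10 and Nkx2-2 are highest in oligodendrocyte-like cells. The intervals of the latter overlap the next class for Nkx2-2 in GBM dpi25 and Sox10 in PDGFRa-GFP.

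Within matched classes the 2 cortical libraries differed by less than 2-fold in most genes. In primitive OPC-like cells the log2 ratio of PDGFRa-GFP over hGFAP-GFP was 0.82 for Olig1, 0.41 for Olig2, 0.70 for Sox10 and -2.30 (-4.09 to -0.80) for Nkx2-2, the last from 5 and 17 UMIs. In cycling-like cells it was 0.89 for Olig1, 0.07 (-0.21 to 0.36) for Olig2 and 1.26 (0.45 to 2.15) for Sox10. In oligodendrocyte-like cells it was -0.61 (-0.94 to -0.30) for Olig1 and 1.27 (0.56 to 1.98) for Nkx2-2, with intervals that included 0 for Olig2 and Sox10. Different clusters made up the matched classes, and the primitive class shifts with the resolution as given above. After the data were seen, the PDGFRa-GFP cluster led by Fos, Hes5 and Dll1 was set against the hGFAP-GFP cluster led by Prss23, Dll1 and Draxin. The log2 ratio was 0.68 (0.51 to 0.86) for Olig1 and -2.32 (-4.12 to -0.81) for Nkx2-2. Between the Mcm clusters it was 1.09 (0.64 to 1.57) for Olig1, with 0 and 1 UMIs of Nkx2-2. The part of cluster make-up in the class ratios was not tested.

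Most clusters of GBM dpi25 lay within a range of 1.37-fold for Olig1, 1.69-fold for Olig2, 1.67-fold for Sox10 and 2.04-fold for Nkx2-2. Its cycling-like and unnamed clusters, 9 clusters with 4390 cells, ran from 989.8 to 1355 CPM of Olig1 and from 406 to 688 CPM of Olig2. They ran from 118 to 196 CPM of Sox10 and from 35.8 to 73.2 CPM of Nkx2-2. One further unnamed cluster of 18 cells, with 186 CPM of Olig1, was left out of these ranges after its values had been seen. Cycling-like cells of GBM dpi25 exceeded those of PDGFRa-GFP by a log2 ratio of 1.02 (0.91 to 1.14) for Olig1, 1.48 (1.30 to 1.66) for Olig2, 1.71 (1.34 to 2.10) for Sox10 and 1.86 (1.22 to 2.56) for Nkx2-2. In oligodendrocyte-like cells the same ratio was -0.13 (-0.52 to 0.27) for Olig1, -0.85 (-1.33 to -0.38) for Olig2, -0.02 (-0.64 to 0.62) for Sox10 and -1.62 (-2.63 to -0.68) for Nkx2-2. The 3 cycling-like clusters of PDGFRa-GFP were unlike each other, with 1446, 234 and 86.9 CPM of Olig1.

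In GBM dpi35 the clusters lay far apart. Its 8 clusters led by microglial or macrophage genes, 2716 cells, had 71.0 to 230 CPM of Olig1, 7.5 to 22.8 CPM of Olig2 and 6.6 to 23.7 CPM of Sox10. Cycling-like cells of that library had 1007 CPM of Olig1 and 325 CPM of Olig2. Without a cycling cluster that also held microglial genes they had 1566 CPM and 513 CPM. That cluster is also among the 8 led by microglial or macrophage genes, so its cells stand in both sets of values. In microglia- or macrophage-like cells Olig1 gave 8.23 UMIs per UMI of Olig2 (6.47 to 10.6) in GBM dpi35, beside 4.13 over the library, and 2.125 (1.44 to 3.18) in GBM dpi25, beside 2.10.

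All 4 genes were rarely seen in 1 cell. At 1000 UMIs, at least 1 of the 4 was seen in 44.3% of GBM dpi35 cells, 75.5% of GBM dpi25 cells, 42.03% of PDGFRa-GFP cells and, in hGFAP-GFP, 26.3%. All 4 were seen in 11, 12, 2 and 0 cells of those libraries. Among OPC-like cells at least 1 was seen in 89.3% in GBM dpi35 and 91.4% in PDGFRa-GFP. Among oligodendrocyte-like cells the share was 82.4% in GBM dpi35, 76.4% in GBM dpi25, 77.1% in PDGFRa-GFP and 85.0% in hGFAP-GFP, and among primitive OPC-like cells 49.7% in PDGFRa-GFP and, for hGFAP-GFP, 38.9%. The same share was 9.6% and 13.3% in the microglia- or macrophage-like cells of GBM dpi35 and GBM dpi25, and 7.0% and 4.4% in the neuron-like cells of PDGFRa-GFP and hGFAP-GFP.

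**Figure D3:**
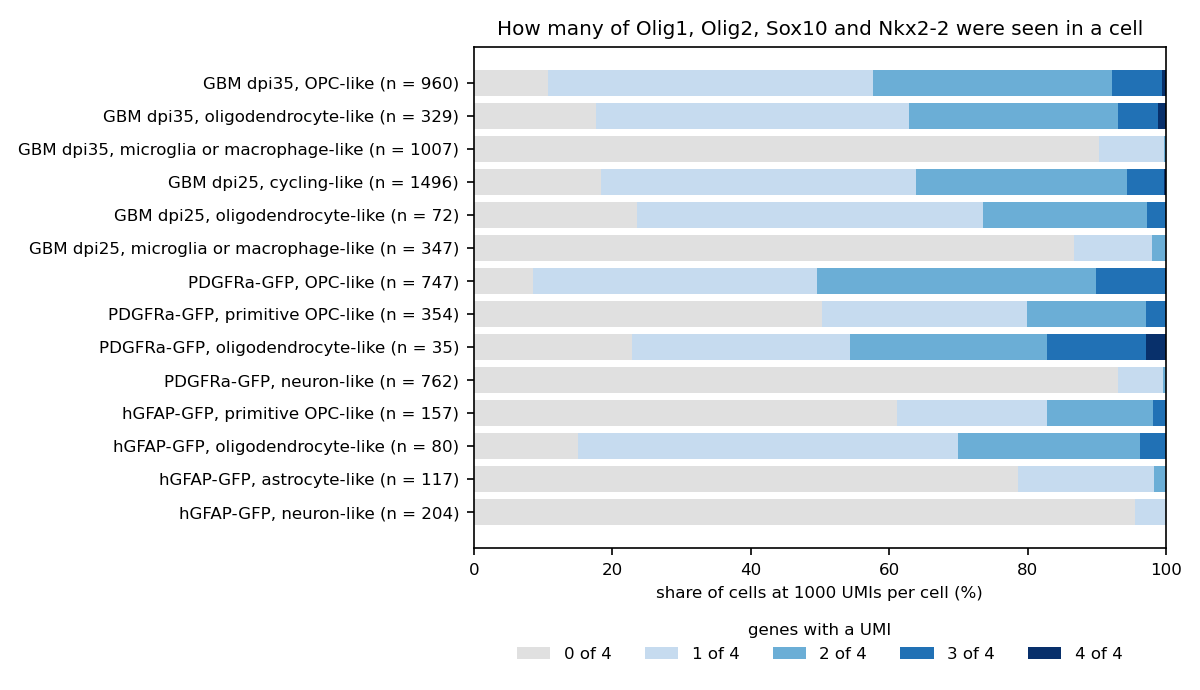
Share of cells, at 1000 UMIs per cell, in which 0, 1, 2, 3 or 4 of the genes had a UMI, by library and class, with the number of cells. At least 1 gene was seen in 91.4% of OPC-like and 7.0% of neuron-like PDGFRa-GFP cells.

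Across all cells of PDGFRa-GFP the genes were seen together, and within OPC-like cells the shares with and without a partner lay closer. In PDGFRa-GFP, Olig2 was seen in 408 of 972 cells with Olig1 (41.98%, 38.8% to 45.1%) and in 126 of 1712 cells without it (7.4%). Olig1 was seen in 160 of 200 cells with Sox10 (80.0%) and in 812 of 2484 without it (32.7%). Within OPC-like cells of that library Olig2 was seen in 46.5% of cells with Olig1 and 37.3% without, and Olig1 in 80.5% of cells with Sox10 and 82.4% without. Sox10 was seen in 17.9% of OPC-like cells with Nkx2-2 and 20.1% of those without it.

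GBM dpi35 showed a like contrast, with Olig2 in 28.1% of cells with Olig1 and 5.7% of cells without it over the library, and in 32.8% and 26.3% within OPC-like cells. In GBM dpi25 the contrast over the library was smaller at the depth drawn, with Olig2 in 40.9% of cells with Olig1 and 28.6% without. That contrast was larger when more UMIs were drawn per cell, as given later, so its size depends on depth. Within cycling-like cells of GBM dpi25 the shares lay close, at 40.9% and 36.7%. Primitive OPC-like cells were the exception. Olig2 was seen in 40.1% of them with Olig1 and 9.6% without it in PDGFRa-GFP, and in 49.0% and 10.2% in hGFAP-GFP, and each library's class joins the 2 unlike clusters described above. In hGFAP-GFP oligodendrocyte-like cells the order was the other way, with Olig2 in 10 of 40 cells with Olig1 (25.0%, 12.7% to 41.2%) and 23 of 40 without it (57.5%, 40.9% to 73.0%). Cells of a library are not replicates, so none of these shares carries a test.

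Shares of other genes differed with the number of the 4 that a PDGFRa-GFP cell showed, though Pdgfra did not rise from 2 to at least 3. Over cells with 0, 1, 2 and at least 3 of them, Pdgfra was seen in 3.5%, 18.4%, 27.3% and 27.1%, and Bcas1 in 3.1%, 17.9%, 22.6% and 35.4%. Dlx1, a factor of ventral interneuron progenitors, went the other way with 55.9%, 15.3%, 7.7% and 2.1%. The proliferation gene Mki67 was seen in 19.3%, 11.6%, 9.8% and 4.2% of these PDGFRa-GFP cells. In GBM dpi25 Mki67 lay between 26.5% and 29.4% at every number of the 4, while the microglial gene C1qa was seen in 22.2%, 2.1%, 1.0% and 1.1%.

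The genes whose levels ran most like each of the 4 were sought over 45 library-by-class sums, which share libraries and differ in depth. For Olig1 they were Olig2 (Pearson r = 0.92), Brinp3 (0.87), Sox10 (0.86), Scrg1 (0.83) and Arxes1 (0.83). For Olig2 they were Olig1 (0.92), Asrgl1 (0.88), Ncald (0.87), Scrg1 (0.87) and Rprm (0.86). For Sox10 they were Pllp (0.90), Bcas1 (0.90), Lrrtm3 (0.88), Olig1 (0.86) and Brinp3 (0.86). For Nkx2-2 they were Nap1l5 (0.85), Cyp2j6 (0.84), Gjc3 (0.81), Ugt8a (0.81) and Dmrtb1 (0.81), with none of the other 3 genes among them by Pearson's r, while Olig2 was among the first 5 by Spearman's rho (0.85). Pllp, Gjc3 and Ugt8a encode a myelin proteolipid, a gap junction protein of oligodendrocytes and the enzyme that makes galactosylceramide for myelin. Of each 5, 2 or 3 stayed in the first 5 with Spearman's correlation or a larger pseudocount.

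The C1 cells had medians of 3405 to 5591 detected genes per set, beside 1172.5 to 2199 per droplet library, and there the genes were found together in single cells. The 2 tables were normalized separately, so the strains stand side by side only, and a value of 0 is given as listed at 0, since Gapdh was listed at 0 in 1 to 7 cells of each set. In PDGFRa-GFP, Olig1 ran from 0 to 1762 TPM with a median of 202 TPM in the 53 P6 cells, and from 0 to 1399 TPM with a median of 0 in the 60 P3 cells. At 10 TPM or more it was found in 77.4% of P6 cells and 23.3% of P3 cells. Olig2 was found in 25 of 53 and 12 of 60, Sox10 in 62.3% and 16.7%, and Nkx2-2 in 16.98% and 6.67% of P6 and P3 cells. The P6 cells had more of each gene by share, and every gene ranged down to 0 in both sets. For Nkx2-2 the shares rest on 9 P6 and 4 P3 cells, and their intervals overlapped (8.07% to 29.8% and 1.85% to 16.2%). The median of detected genes was 5591 in P6 and 4124.5 in P3 cells, and its part in these shares was not tested.

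On the mean over cells, the log2 ratio of P6 over P3 was 1.15 for Olig1 (296 and 133 TPM), 1.55 for Olig2 (84.0 and 27.97 TPM), 2.09 for Sox10 (106 and 24.1 TPM) and 0.05 for Nkx2-2 (12.6 and 12.1 TPM). Single cells carried part of these means. Without the P3 cell with 491.774 TPM of Nkx2-2 that ratio was 1.44, and without the P6 cell with 195.749 TPM it was -0.38. Without the highest cell of either set, in turn, Olig1 lay between 1.01 and 1.41, Olig2 between 1.23 and 2.06 and Sox10 between 1.97 and 2.71. Over all cells 3 of 4 were at least 2-fold higher, against 33.9% of 15737 genes, and 0 were lower, against 20.5%. Among cells at 10 TPM or more the median of Olig1 was 268 TPM in 41 P6 cells and 547 TPM in 14 P3 cells, so that more P6 cells passed 10 TPM at a lower median. Of 21 other regulators 7 were at least 2-fold higher and 2 lower, and of 14 target or marker genes 9 were higher and 0 lower. Myrf, a factor that drives myelination, was at 38.3 TPM at P6 and 3.0 TPM at P3, and Pdgfra at 152 TPM and 37.7 TPM. Of 9 neuronal factors 6 were lower and 1 higher, with Sp8 at 95.9 TPM at P6 and 670.5 TPM at P3. The share of cells with at least 3 OPC markers was 75.5% at P6 and 26.7% at P3, and its part in these ratios was not tested.

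In hGFAP-GFP the shares of the 2 sets lay close. Olig1 was found in 36.1% of P4 and P6 cells and 38.8% of P3 cells, Olig2 in 22.95% and 24.5%, Sox10 in 13.1% and 10.2%, and Nkx2-2 in 4 of 61 cells (6.56%) and 0 of 49, which allows up to 7.25%. The log2 ratio of means of P4 and P6 over P3 was 0.59 for Olig1, 0.61 for Olig2, 1.07 for Sox10 and 1.97 for Nkx2-2, whose highest P3 cell had 9.15 TPM. Without the P4 or P6 cell with 3290.91 TPM of Olig2 that ratio was -0.81, and without the P3 cell with 1387.77 TPM it was 1.61. Without the P4 or P6 cell with 748.03 TPM the ratio of Sox10 was 0.41, and that of Nkx2-2 was 1.06 without its highest cell of 141.56 TPM. No direction is read for Olig2 from these means. As a difference of mean log2(TPM + 1), Olig1 turned to -0.14, and the Nkx2-2 ratio was 0.44 with a pseudocount of 10. Over all cells 2 of 4, Sox10 and Nkx2-2, were at least 2-fold higher, against 25.7% of 12564 genes, and 0 were lower, against 26.1%. Of 21 other regulators 3 were higher and 6 lower, and of 13 target or marker genes 2 were higher and 4 lower. Of 9 neuronal factors 6 were higher and 1 lower, with Dlx5 at 97.6 TPM at P4 and P6 and 9.7 TPM at P3.

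**Figure D4:**
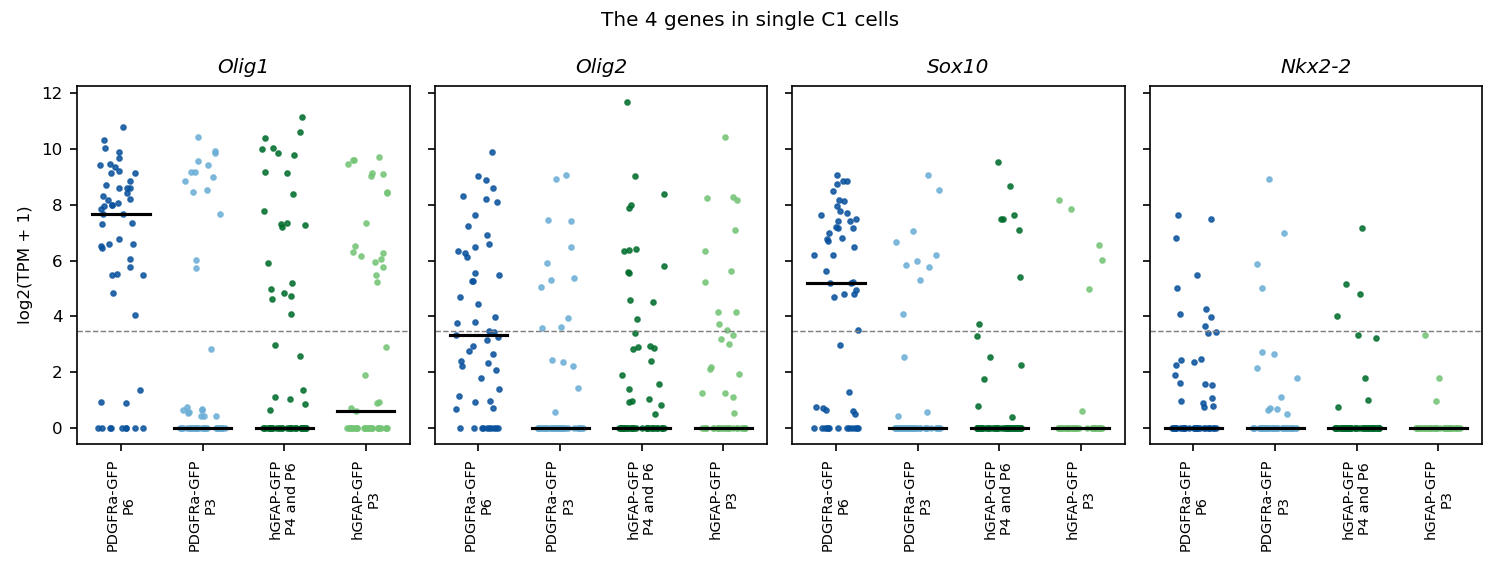
Level of each gene in every C1 cell as log2(TPM + 1), by set. Black bars are medians and the dashed line marks 10 TPM; the Olig1 median lies at 202 TPM in the PDGFRa-GFP P6 cells and at 0 in the P3 cells.

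In single C1 cells Olig1 accompanied most cells with any of the other 3 genes. All 33 PDGFRa-GFP P6 cells with Sox10, all 25 with Olig2 and all 9 with Nkx2-2 also had Olig1. Among P6 cells without the partner, Olig1 was found in 40.0% for Sox10, 57.1% for Olig2 and 72.7% for Nkx2-2. The last share lies within the interval of the 9 of 9, 66.4% to 100%. At P3, 9 of 10 PDGFRa-GFP cells with Sox10, 10 of 12 with Olig2 and 3 of 4 with Nkx2-2 had Olig1. Without the partner the P3 shares were 10.0%, 8.33% and 19.6%. In hGFAP-GFP at P4 and P6, all 8 cells with Sox10, 9 of 14 with Olig2 and 3 of 4 with Nkx2-2 had Olig1. Without the partner the shares were 26.4%, 27.7% and 33.3%. At P3, all 5 hGFAP-GFP cells with Sox10 and 10 of 12 with Olig2 had Olig1, beside 31.8% and 24.3% without the partner. At least 3 of the 4 genes were found in 26 of 53 PDGFRa-GFP P6 cells and 7 of 60 P3 cells, and in 5 of 61 hGFAP-GFP P4 and P6 cells and 3 of 49 P3 cells. Among PDGFRa-GFP cells with at least 3 OPC markers, Sox10 was found in 82.5% of 40 P6 cells and 62.5% of 16 P3 cells, and in 0 of the others at both ages. Olig2 was found in 2 of the 13 other P6 cells (15.4%) and 6.8% of the other P3 cells. No contrast with Sox10 is read from so few cells.

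Intervals were numerous around Olig1 and Olig2, though they covered 6.98% and 7.55% of the bases of the gene and 100 kb on each side. The pooled PDGFRa-GFP list holds 93170 summits in 76321 intervals with a median width of 230 bases, and fold and q are the authors' own values. Coordinates follow mm10, and 43.1% of RefSeq promoters of the same build overlapped an interval in place but 3.12% when moved by 10000 bases. Within 100 kb of the gene there were 33 intervals for Olig1, 37 for Olig2, 29 for Sox10 and 14 for Nkx2-2, beside a median of 10 over 21887 protein-coding genes. Of those genes, 6.52% had more intervals than Olig1, 4.50% more than Olig2, 9.13% more than Sox10 and 34.6% more than Nkx2-2. At q of at most 0.05 there were 21 for Olig1, 23 for Olig2, 19 for Sox10 and 8 for Nkx2-2, beside a median of 7. With intervals at a -log10 q of at least 10 alone, Olig1 and Olig2 had 0 each, below the median of 1. Olig1 and Olig2 are neighbours on chromosome 16 and share 31 intervals, so their counts are not independent.

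The interval at chr16:91269534-91270671, 1138 bases wide, spans the lower end of Olig1 with a fold of 7.58 and a -log10 q of 9.49. The interval at chr16:91224711-91226044, 1334 bases wide with a fold of 7.08, spans the lower end of Olig2 and all 250 bases of the promoter window printed above. Another, at chr16:91221824-91223420, lies 2130 bases below Olig2 and with 1597 bases is wider than 98.0% of the list. The 41091 bases between the genes hold no other gene and 6 intervals that cover 6.03% of them.

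At Sox10, 2 weak intervals overlap the gene and none spans either end. The strongest within 100 kb, with a fold of 18.7 and a -log10 q of 39.5, lies 91349 bases away over Ankrd54, and the next, with a fold of 9.60, lies 78717 bases away over Pick1. At Nkx2-2 the intervals sat in the gene span, 11 of 14, with a highest fold of 4.55. Some of these lie before the printed start on the minus strand, among them chr2:147193556-147193881. One of them covers 55 bases of the printed Nkx2-2 window, at chr2:147186226-147186457. Since E14.5 and P5 were pooled, no stage can be read from these intervals.

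**Figure D5:**
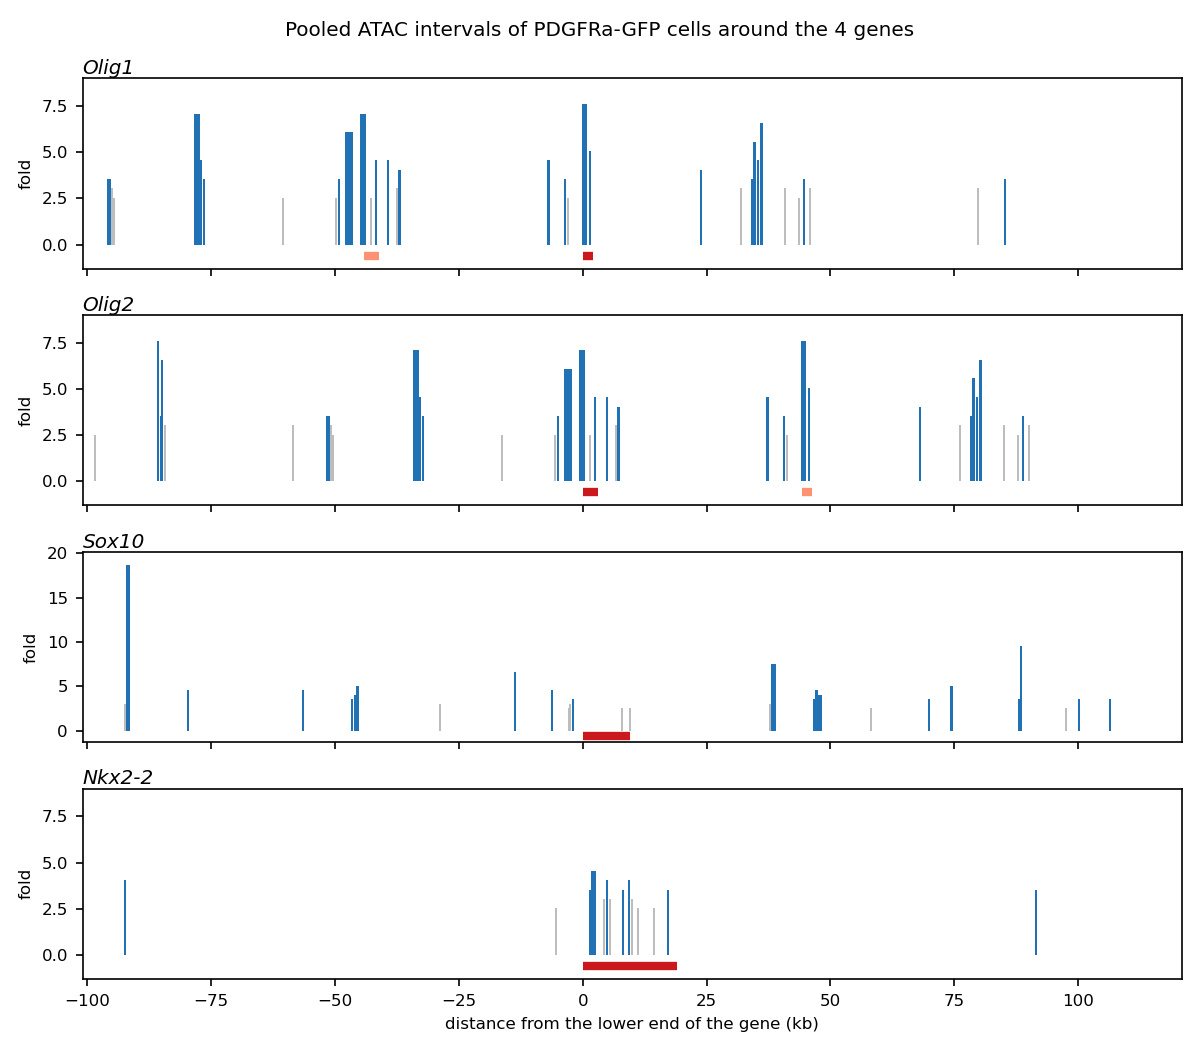
Intervals of the pooled PDGFRa-GFP list by distance in kb from the lower end of each gene, with height as the authors' fold; blue marks q of at most 0.05, grey the rest, dark red the gene and light red the neighbouring Olig gene. Intervals crowd around Olig1 and Olig2 (33 and 37 within 100 kb), and those of Nkx2-2 lie over the gene.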

How the data were processed

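Single-cell RNA was measured in 4 droplet libraries and 4 C1 sets, and open chromatin in 1 pooled ATAC list, 229 samples in 10 groups by their titles. The 3 Drop-seq tables hold a signal the authors deposited, UMIs per gene divided by the cell total and scaled to 10000 per cell as the values show, and undoing that scale gave whole UMIs for 100% of values within 0.1. STAR and mm10 are named for them in the submitters' processing notes. The 10x matrix holds deposited UMI counts, for which those notes name Cell Ranger, and the C1 tables hold deposited TPM, for which they name RSEM. The ATAC list gives the fold of each summit as a ratio deposited by the authors, and the −log10 of p and q deposited beside it, from MACS2 2.12 on mm10 per the submitters' processing notes, which also list rn5. The aligner settings, filters and annotation are not given in the sources used here.

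UMIs were summed per library, class and cluster and scaled to CPM, with exact Poisson intervals, exact conditional intervals for ratios and Clopper-Pearson intervals for shares, all at 95% and for counting error only. The upper limit printed for a droplet share of 0 is instead 3 divided by the number of cells. Clusters were built per library with scanpy 1.11.5 (2000 variable genes without the 4 genes, 30 components, 15 neighbours, Leiden resolution 1, seed 20), and named where at least 3 markers of a list stood among the 50 leading genes and no other list came close. That naming rule, with lists of neuronal and hypoxia genes that barred an astrocyte or erythroid name, was settled after the clusters were seen. Scrublet called 125, 0, 5 and 4 doublets in GBM dpi35, GBM dpi25, PDGFRa-GFP and hGFAP-GFP, which stayed in the values. The calls in the Drop-seq libraries are too few to rely on. A gene counts as higher or lower past 2-fold, among genes with at least 20 summed UMIs or, in C1, a mean of at least 1 TPM with a pseudocount of 1. The text names the 4 genes, the 5 most correlated genes of each and genes of 3 fixed lists. The 4 genes, the lists and the markers were chosen with earlier results of these data known. With 1 sample a group there is no test. The scripts were tested on simulated data.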

Additional observations from a re-analysis of the deposited data

Results flagged for a closer look

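The ratios below point opposite ways in 2 classes of the same pair of libraries. The difference between classes was not tested, since each library is 1 sample.

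Between PDGFRa-GFP and hGFAP-GFP, Olig1 had a log2 ratio of 1.55 in neuron-like and -0.61 in oligodendrocyte-like cells. The neuron-like value rests on 92 UMIs in PDGFRa-GFP and 15 in hGFAP-GFP, and the oligodendrocyte-like class of hGFAP-GFP also had OPC markers among its leading genes. Nkx2-2 had 1.27 in oligodendrocyte-like cells (34 UMIs in PDGFRa-GFP, 37 in hGFAP-GFP) and -2.30 in primitive OPC-like cells (5 and 17 UMIs).

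Between GBM dpi25 and PDGFRa-GFP, Olig2 had a log2 ratio of 1.48 in cycling-like and -0.85 in oligodendrocyte-like cells. Nkx2-2 had 1.86 in cycling-like and -1.62 in oligodendrocyte-like cells. The oligodendrocyte-like classes held 72 cells in GBM dpi25, of which 39 were led by late myelin genes, and 38 cells in PDGFRa-GFP. The cycling-like class of PDGFRa-GFP joins clusters unlike each other in Olig1, as given above. The part of these make-ups in the ratios was not tested.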

How the results depend on the processing

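No paired analysis was possible because no test was made, and the replicate numbers only number the cells of a set or a single library. Of the main comparisons recomputed, 81 stayed within the tolerance set for them, 52 moved and 3 changed sign. Scaling, cell filters and doublet removal moved no droplet ratio between libraries except Olig1 in GBM dpi25 over PDGFRa-GFP, which was 0.50 when every cell weighed the same. With no minimum count, 1165 genes were at least 2-fold higher and 5129 lower in PDGFRa-GFP over hGFAP-GFP, and 4125 were lower in GBM dpi25 over PDGFRa-GFP.

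Co-detection grew with depth. The difference in Olig2 between cells with and without Olig1, in percentage points, was 12.4 at 500 and 36.7 at 2000 UMIs in GBM dpi35, 5.36 and 31.5 in GBM dpi25, 20.2 and 52.7 in PDGFRa-GFP, and 55.7 at 2000 in hGFAP-GFP. For Sox10 by Olig2 it was 5.60 and 24.1, 0.884 and 6.01, 5.47 and 18.9, and 17.8 at 2000 in hGFAP-GFP. For Olig2 by Sox10 it was 8.67 and 29.5 in GBM dpi35, 16.3 at 500 in PDGFRa-GFP and 45.1 at 2000 in hGFAP-GFP. All 48 shares of cells in droplets, 31 of 176 class levels and 10 of 32 C1 shares moved with depth, resolution or threshold.

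As a difference of mean log2(TPM + 1), PDGFRa-GFP P6 over P3 gave 3.99 for Olig1, 2.39 for Olig2, 3.26 for Sox10 and 0.77 for Nkx2-2. For hGFAP-GFP it gave -0.14 for Olig1, which changed sign, 0.041 for Olig2, 0.42 for Sox10 and 0.39 for Nkx2-2. The cause was not tested. The Nkx2-2 ratio of hGFAP-GFP was 3.499 with a pseudocount of 0.1 and 0.44 with 10. Without the highest P6 cell of PDGFRa-GFP, chosen after seeing the data, Nkx2-2 changed sign to -0.38. Without the highest P3 cell it was 1.44, Olig2 was 2.06 and Sox10 2.71. Without the highest P4 or P6 cell of hGFAP-GFP, Olig2 changed sign to -0.81, Sox10 was 0.41 and Nkx2-2 1.06. Without the highest P3 cell Olig2 was 1.61 and Sox10 1.75.

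Within 50 kb there were 18 intervals for Olig2 and 17 for Sox10, and within 200 kb 56, 57, 54 and 26 for Olig1, Olig2, Sox10 and Nkx2-2. At q of at most 0.05, an alternative chosen after seeing the data, there were 21, 23, 19 and 8, and at a −log10 q of at least 10 there were 0, 0, 2 and 0. At that threshold Olig1 and Olig2 lay below the median of 1, and 66.8% of genes had more. Olig1, Olig2 and Sox10 stayed above the median of all genes at 50 and 200 kb and at q of 0.05. Another alternative added later was the cycling-like class without its microglial cluster.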

Other observations

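In the hGFAP-GFP library an unnamed cluster of 43 cells had 133 UMIs of Olig1, 61 of Olig2, 6 of Nkx2-2 and 0 of Sox10. It was singled out after its values were seen. In PDGFRa-GFP an unnamed cluster of 321 cells had 337 UMIs of Olig1, 196 of Olig2, 18 of Sox10 and 6 of Nkx2-2.

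In GBM dpi35 the share of cells with the proliferation gene Mki67 was 4.56% among cells with none of the 4 genes, 8.91% with 1, 11.7% with 2 and 14.2% with at least 3, while that of the microglial gene C1qa was 74.2%, 31.9%, 17.5% and 14.7%.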
